A study of Rattus norvegicus with 10 samples.

Results

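The potassium channel genes described here are those whose current symbol begins with Kcn, apart from Kcne1, Kcne2, Kcne3, Kcne4 and Kcnq1. The rule found 85 such genes among the 15168 named genes on the array, each represented by its probe with the highest mean log2 value. They hold 37 voltage-gated pore-forming subunits, 9 accessory subunits of voltage-gated channels, 15 inward rectifiers, 13 two-pore domain channels and 11 channels gated by calcium or sodium with their subunits. Messenger RNA was measured in submandibular glands from 14-week-old males of a pair of rat strains. The arrays came from 5 SHR, the Spontaneously Hypertensive strain, whose blood pressure rises without treatment, and 5 WKY rats, the control strain matched for age and weight. The labels name no treatment for either strain. Each array carried 1 sample, and p-values measure the spread between these samples.

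Potassium channels let potassium leave the cell and so set the membrane voltage. In the acinar cells of salivary glands, calcium-activated potassium channels hold the voltage that drives chloride, and with it fluid, into saliva, while duct cells take up sodium and secrete potassium. Voltage-gated and G protein-coupled members are better known from nerve and muscle, which the gland also contains, and some members are known from immune cells.

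Of the 85 genes, 80 were well above background on all 10 arrays, as were 14184 of all 15168 named genes. Of the 85, 83 were tested. Kcna4 and Kcnv1, a voltage-gated subunit and a silent subunit that modifies other voltage-gated channels, were well above background on 0 of 10 arrays, and no difference is given for them. For Kcnj13, 3 of 5 SHR arrays were above background, and for Kcne5 and Kcns3 4 of 5, while for these genes all WKY arrays were. The acinar markers fixed for the tissue label (Aqp5, Ano1, Bhlha15, Smgc and Slc12a2) were above background on every array, all 5 of them. The 4 duct markers present on the array were too. As most named genes were above background, this cannot decide the tissue.

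Over all genes tested, array SHR 3-3 stood apart: 420 genes lay 2-fold or more under the average of its strain's remaining arrays, where the same count was 31 to 45 for each of these. Among the 83 potassium channel genes, 3 were at least 2-fold lower there (Kcnj16, Kcnmb4 and Kcns3) and 1 was higher (Kcnma1). In the other 9 arrays the count was at most 1. It had the lowest 75th percentile of intensity, 333, of arrays that reached up to 648. The spread within a strain was small for most genes, with a median SD of 0.19 in SHR and 0.17 in WKY, against 0.20 and 0.15 over all genes.

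At an adjusted p below 0.05 (limma, Benjamini-Hochberg over 14711 genes), 2 of the 83 tested potassium channel genes were lower in SHR and 0 were higher. That is 2.41% of the genes tested, against 4.36% of all genes. Without SHR 3-3, 1 potassium channel gene, Kcnk2, was lower and 0 were higher. The scan slides nearly coincide with the strains, and in a fit that blocks on them the threshold was passed by 0 of the 83 genes and 44 of all 14711 genes. By direction, the same threshold called 2.85% of all genes lower and 1.51% higher. At an unadjusted p below 0.05, 5 of the 83 genes were higher and 9 lower, 16.9% in all, against 20.3% of all genes. The strains did not overlap in 4 of the 83 genes, or 4.82%, against 7.25% of all genes. The median log2 difference (SHR minus WKY) was −0.040 over the potassium channel genes and −0.016 over all genes.

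The lower pair were Kcnk2 (TREK-1), a two-pore channel opened by membrane stretch and by polyunsaturated fatty acids, and Kcna3 (Kv1.3), a voltage-gated channel known from T cells and macrophages. Only Kcnk2 differed by more than 2-fold, on 1 of its 3 probes, against 154 of all 14711 genes. For 80 of the 83 genes the 95% interval of the difference lay wholly inside a 2-fold change in either direction. That is 96.4%, against 95.1% of all genes, and the exceptions were Kcnk2, Kcns3 and Kcnj16. The plot of differences by channel family shows Kcnk2 alone to the left and the intervals of the others mostly across 0.

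**Figure D1:**
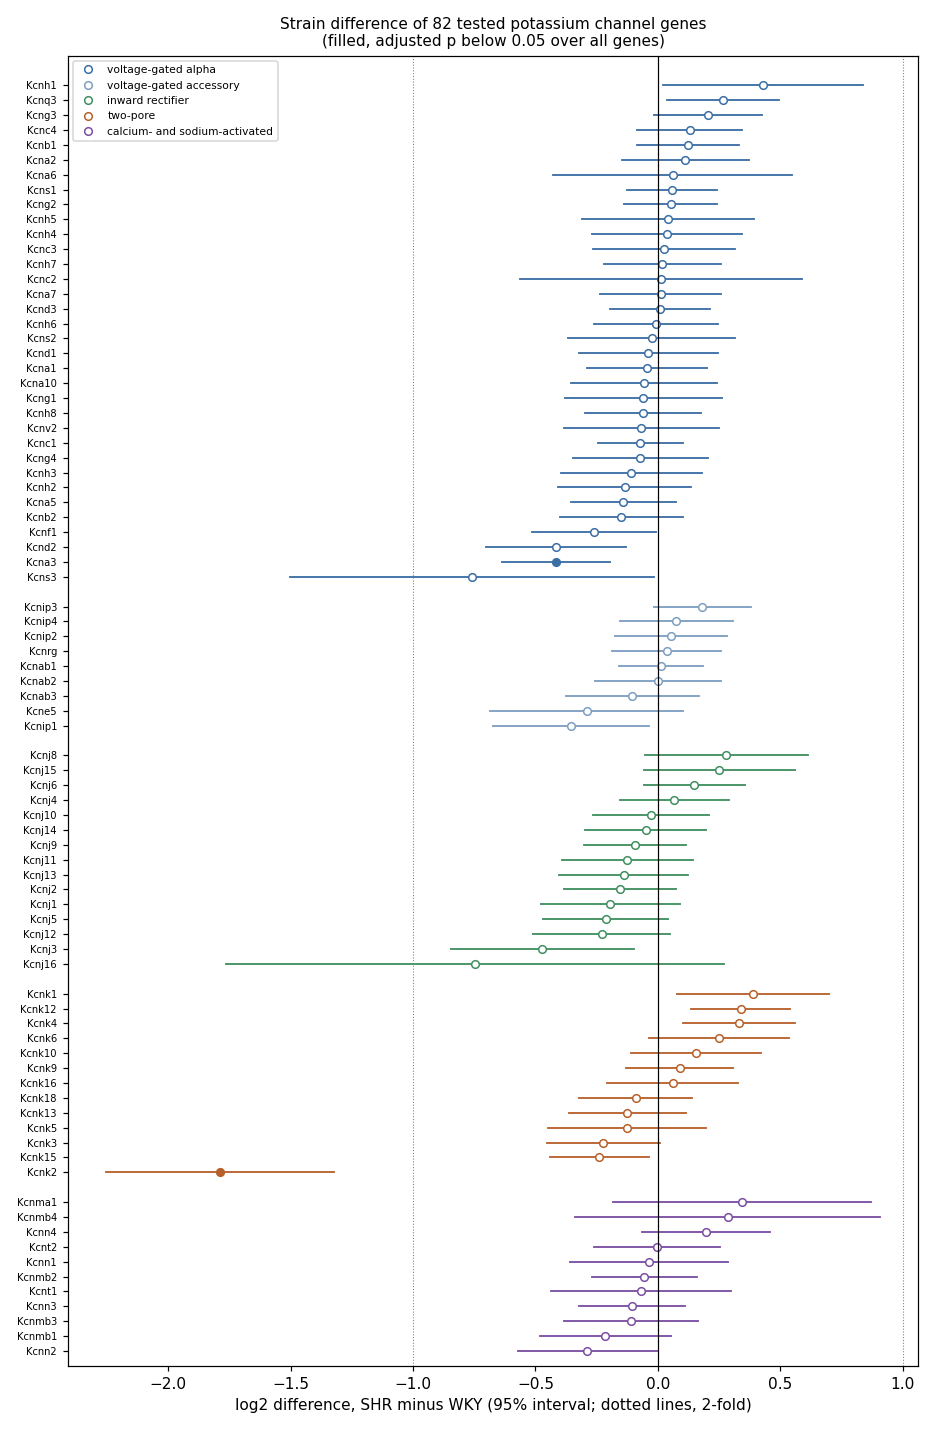
Log2 difference (SHR minus WKY, x axis) of 82 of the 83 tested potassium channel genes, ordered within its family, with its 95% interval. Dotted lines mark 2-fold; filled points are Kcnk2 at −1.79 and Kcna3 at −0.42, which passed the threshold, and all other points are open.

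The sequences upstream of the annotated starts of both lower genes show where their transcription is annotated to begin. RefSeq's promoter table (build GRCr8) gives Kcnk2 a pair of starts and Kcna3 a single one. It matched 58 of the 85 genes. The 250 bases before each start are printed 5′ to 3′ on the gene's strand. Capitals mark the GC box GGGCGG. The TATA box TATAAA and the CCAAT box CCAAT were also searched, each on both strands.
Kcnk2, minus strand, chr13:103438643-103438892: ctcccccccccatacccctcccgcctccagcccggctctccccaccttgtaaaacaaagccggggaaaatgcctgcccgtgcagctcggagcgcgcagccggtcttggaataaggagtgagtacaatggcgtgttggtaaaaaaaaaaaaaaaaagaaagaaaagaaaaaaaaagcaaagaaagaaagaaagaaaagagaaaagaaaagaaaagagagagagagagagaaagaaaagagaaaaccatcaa
Kcnk2, minus strand, chr13:103494687-103494936: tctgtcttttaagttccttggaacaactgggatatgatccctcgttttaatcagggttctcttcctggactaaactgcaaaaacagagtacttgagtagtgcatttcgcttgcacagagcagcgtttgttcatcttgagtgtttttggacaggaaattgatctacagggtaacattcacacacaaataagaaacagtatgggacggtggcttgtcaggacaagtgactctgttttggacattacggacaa
Kcna3, plus strand, chr2:197320074-197320323: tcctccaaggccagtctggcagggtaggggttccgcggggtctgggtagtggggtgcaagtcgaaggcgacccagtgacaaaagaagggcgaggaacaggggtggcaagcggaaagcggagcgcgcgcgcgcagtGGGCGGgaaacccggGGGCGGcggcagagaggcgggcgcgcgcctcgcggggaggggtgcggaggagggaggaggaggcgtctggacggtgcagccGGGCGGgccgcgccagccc
The Kcna3 window held 3 GC boxes and 29 CpG dinucleotides, and the Kcnk2 windows held 0 GC boxes with 9 and 5 CpG dinucleotides. None of the windows held a TATA or CCAAT box in these letters. Of all 33469 promoter windows of this length, 30.5% held a GC box, 12.9% a TATA box and 34.0% a CCAAT box, and the median was 5 CpG dinucleotides. Of the 64 windows of these potassium channel genes, 48.4% held a GC box, 3.1% a TATA box and 25% a CCAAT box. These matches describe the reference sequence and not the strains, whose own sequence was not analysed here.

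Two-pore domain channels carry the background potassium current that keeps cells near their resting voltage. Of the 13 genes of this family, all tested, 1 was lower, 0 were higher and 12 did not pass (median log2 difference 0.060), and in 3 the strains did not overlap. These are 7.69% called and 23.1% not overlapping, against 4.36% and 7.25% of all genes. Kcnk2 had log2 values, taken relative to each array's 75th percentile, of −2.55, −3.08, −3.25, −2.73 and −2.94 in SHR 2-1, 2-3, 3-1, 3-3 and 3-4. In WKY 1-2, 1-3, 1-5, 4-1 and 4-2 the values were −0.34, −1.23, −1.08, −1.68 and −1.28. Every SHR array lay below every WKY array, by a wide gap. On the probe that stands for the gene, A_64_P053471, the signal was 3.45-fold lower in SHR. This is a log2 difference of −1.79 ± 0.21 (SE, n = 5 per strain; limma adjusted p = 4.63e-04). Fewer cells that express Kcnk2 and less RNA per cell cannot be told apart in whole-gland RNA.

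The fall of Kcnk2 was seen with 1 of its 3 probes. All 3 probes were above background on every array. The second probe that cites the same RefSeq transcript (A_64_P114986) had values of −2.54, −2.46, −2.65, −2.11 and −2.33 in the SHR arrays and −2.13, −2.26, −2.23, −2.14 and −2.30 in the WKY arrays, in the order above. The strains overlapped there, with a log2 difference of −0.21 ± 0.10 (SE; limma adjusted p over all probes = 0.299). The log2 value of A_64_P053471 minus that of this probe averaged 1.09 in WKY and −0.49 in SHR. A_64_P053471 thus had the highest mean, by which it was chosen, through its WKY values. The third probe (A_43_P13418), which cites another transcript of the gene, differed by −0.0088 ± 0.12 (adjusted p = 0.977). It averaged −3.56 ± 0.23 in SHR and −3.55 ± 0.12 in WKY (SD, n = 5 each).

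The part of the gene that each probe reads was not analysed here, and the cause of the disagreement was not tested. Averaged over its 3 probes, Kcnk2 differed by −0.67 ± 0.10 (SE; adjusted p = 0.00317).

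**Figure D2:**
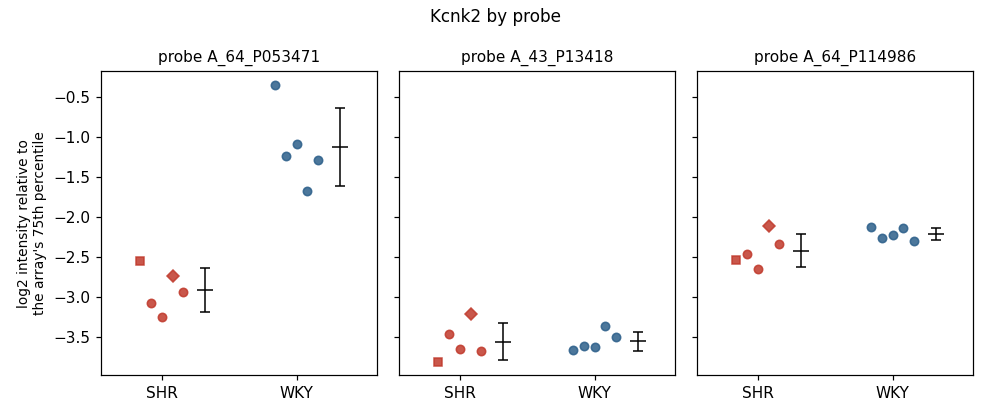
Log2 intensity of the 3 Kcnk2 probes relative to each array's 75th percentile (y axis), 1 point per rat with mean ± SD beside it; squares are SHR 2-1 and diamonds SHR 3-3. The strains are apart on A_64_P053471 (means −2.91 in SHR and −1.12 in WKY) and overlap on the other probes.

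The arrays were scanned in 3 passes, taken as slides, and the slides nearly coincide with the strains. Only 1 slide held both, with SHR 2-1 beside WKY 1-5, 4-1 and 4-2. With the slide as a block, as within that slide alone, Kcnk2 differed by −1.21, resting on SHR 2-1, with a SE of 0.34 in the blocked fit (adjusted p = 0.344). No potassium channel gene passed in that fit, which called 44 of all 14711 genes. Markers of nerve and Schwann cells, and of smooth muscle and myoepithelial cells, where Kcnk2 is known to be expressed, passed in limma in 0 of 7 cases each, and 2 and 1 of them had an unadjusted p below 0.05. Their mean log2 values ran over −0.94 to −0.52 in SHR and −0.63 to −0.37 in WKY for the nerve list. For the muscle list they ran over −0.49 to 0.071 in SHR and −0.25 to −0.045 in WKY. In the nerve list, Sox10 averaged 4.29 in SHR and 4.74 in WKY, while every other marker had a negative mean. The nerve list mean therefore does not stand for each marker. All markers of both lists were above background, and their part in the Kcnk2 result was not tested.

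Kcnk12 (THIK-2) and Kcnk15 (TASK-5), members that give little or no current when expressed alone, also had strains that did not overlap, though neither passed. Kcnk12 had log2 values of −0.045, 0.061, −0.031, 0.29 and −0.17 in the SHR arrays, against −0.24, −0.38, −0.28, −0.33 and −0.35 in the WKY arrays. The SHR arrays were the higher ones throughout, by a log2 difference of 0.34 ± 0.09 (SE; adjusted p = 0.0608). It passed with quantile normalization (0.34, adjusted p = 0.0448), with scaling to the array median (0.37, 0.0416) and in the authors' values (0.36, 0.0323), where it was the only potassium channel gene called higher. Kcnk15 had values of −2.90, −3.10, −3.18, −2.88 and −2.89 in SHR and −2.60, −2.88, −2.78, −2.66 and −2.82 in WKY. The highest SHR array lay just under the lowest WKY array (difference −0.24 ± 0.09, adjusted p = 0.168).

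Kcnk1 (TWIK-1), a weakly inward rectifying channel found in many epithelia, had a log2 difference of 0.39 ± 0.14 (SE; adjusted p = 0.149), the largest positive one of the family. Its values were 2.23, 2.53, 2.16, 2.55 and 1.96 in SHR and 1.78, 1.68, 1.87, 1.86 and 2.31 in WKY. WKY 4-2 lay above 3 of the SHR arrays, so the strains overlapped. Kcnk5 (TASK-2), which opens in alkaline surroundings and is known from bicarbonate-handling epithelia, had a difference of −0.13 ± 0.15 (adjusted p = 0.673; 95% interval −0.45 to 0.19). That value was −0.0016 without SHR 3-1, −0.053 without WKY 4-2 and −0.20 without SHR 3-4. The other 8 genes of the family had differences of −0.22 to 0.33.

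**Figure D3:**
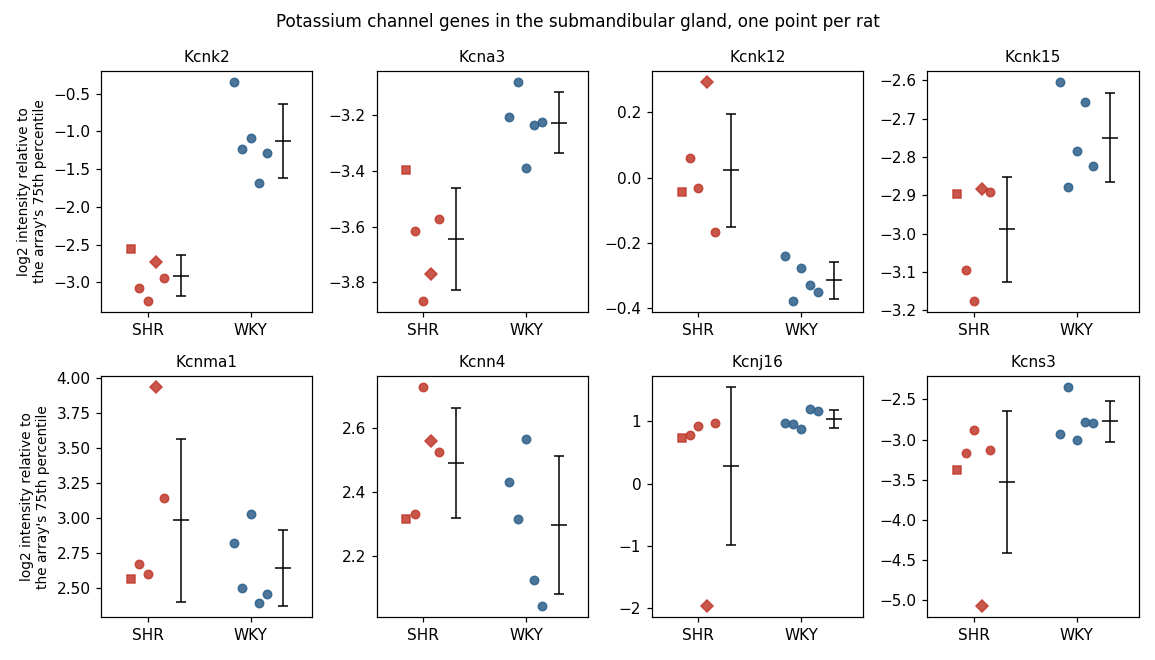
Log2 intensity relative to each array's 75th percentile (y axis, a scale of its own in each panel) of 8 potassium channel genes in SHR and WKY, 1 point per rat with mean ± SD beside it; squares are SHR 2-1 and diamonds SHR 3-3. The strains do not overlap in the upper row, and in the lower row SHR 3-3 lies far below the others for Kcnj16 (−1.97) and Kcns3 (−5.08) and above them for Kcnma1 (3.93).

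Voltage-gated channels open when the membrane depolarises and end electrical activity. Of the 35 pore-forming subunits tested, Kcna3 was lower, 0 were higher and 34 did not pass (median −0.026). That is 2.86% called, against 4.36% of all genes. Kcna3 had log2 values of −3.40, −3.62, −3.87, −3.77 and −3.57 in the SHR arrays and −3.21, −3.08, −3.39, −3.24 and −3.22 in the WKY arrays. The strains did not overlap, but SHR 2-1 and WKY 1-5 lay side by side at the border. It was 1.34-fold lower, with a log2 difference of −0.42 ± 0.10 (SE, n = 5 per strain; limma adjusted p = 0.0381).

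The call of Kcna3 held without SHR 2-1 or WKY 1-5 and was lost without any 1 of the other 8 arrays (SHR 2-3, 3-1, 3-3 and 3-4, WKY 1-2, 1-3, 4-1 and 4-2), with an adjusted p of up to 0.104. In those 8 fits the difference was −0.43 to −0.36, close to the −0.42 over all arrays. With the slide as a block the difference was −0.11 ± 0.17 (adjusted p = 0.99995), and with normexp background correction and quantile normalization together it was −0.15 ± 0.05 (0.134). Markers of macrophages, which carry this channel, were lower in 2 of 5 cases (Cd68 and Aif1), or 40%, against 2.85% of all genes. All 5 differences were negative, and 3 of these markers had an unadjusted p below 0.05. The mean of that list ran over −1.42 to −0.76 in SHR and −0.59 to −0.29 in WKY. Of 4 T cell markers 0 passed and 1 had an unadjusted p below 0.05, with list means of −2.98 to −2.57 in SHR and −2.81 to −2.60 in WKY. Every marker of these lists was above background on all arrays, and their part in the Kcna3 result was not tested.

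Among the voltage-gated subunits that did not pass, Kcnh1 (EAG1) had the largest positive difference, 0.43 ± 0.19 (SE; adjusted p = 0.219). Its SHR arrays spread over −2.24 to −1.10 and its WKY arrays over −2.19 to −1.98, so the strains overlapped. Kcns3, a silent subunit that joins Kv2 channels, had the largest negative one, −0.76 ± 0.34 (adjusted p = 0.235). It stood at −3.39, −3.17, −2.88, −5.08 and −3.13 in SHR and −2.93, −2.34, −3.01, −2.78 and −2.79 in WKY. Without SHR 3-3, the array that lay lowest, the difference was −0.37 ± 0.14 (adjusted p = 0.157). The other 32 pore-forming subunits tested had differences of −0.42 to 0.27.

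Of the 9 accessory subunits of voltage-gated channels, 0 passed in either direction, against 4.36% of all genes (median 0.012). In 1 of them, or 11.1%, the unadjusted p was below 0.05, against 20.3% of all genes. Kcnip1 (KChIP1), a calcium-binding subunit of Kv4 channels, had values of −0.27, −0.92, −0.995, −0.96 and −0.997 in SHR and −0.26, −0.43, −0.76, −0.49 and −0.43 in WKY. SHR 2-1 lay among the WKY arrays and the other SHR arrays below all of them (difference −0.35 ± 0.15 SE, adjusted p = 0.197). Without SHR 2-1 the difference was −0.49 ± 0.10 (adjusted p = 0.0224), and with the slide as a block, where it rests on that array, it was 0.29 ± 0.17. Kcnip3, the related protein also called DREAM or calsenilin, differed by 0.18 ± 0.09 (adjusted p = 0.291). Kcne5, a small single-span subunit, differed by −0.29 ± 0.18 (adjusted p = 0.393), by −0.17 without WKY 1-2 and by −0.83 as the mean of its probes. Its second probe, above background on 2 of 5 SHR and 4 of 5 WKY arrays, differed by −1.38 ± 0.44 (adjusted p over all probes = 0.107).

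Inward rectifiers pass potassium more easily into the cell than out of it and hold the resting voltage. None of the 15 passed, against 4.36% of all genes, and 1 had an unadjusted p below 0.05 (6.67%, against 20.3%). That gene was Kcnj3 (−0.47 ± 0.17 SE, limma adjusted p = 0.144), singled out after its values were seen. Of the 15 differences 11, or 73.3%, were negative (median −0.12), against 53.4% of all genes. The median of all genes, −0.016 here, was 0.014 to 0.020 with quantile normalization, scaling to the median or the authors' values. Kcnj16 (Kir5.1), which joins Kcnj10 (Kir4.1) in the basolateral channels of kidney tubules, had the lowest, −0.75 ± 0.47 (SE; adjusted p = 0.394). It stood at 0.74, 0.78, 0.92, −1.97 and 0.97 in SHR and 0.97, 0.95, 0.87, 1.21 and 1.17 in WKY. SHR 3-3 was far below the other 9 arrays, and without it the difference was −0.18 ± 0.10 (adjusted p = 0.310).

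The mean of the granular and striated duct markers was also lowest in that array. This mean log2 value was 1.66 in SHR 3-3, against 3.26 or more in the other SHR arrays and 3.50 to 3.78 in WKY. The SE of the strain difference was 0.74 for Egf and 0.42 for Foxi1, but 0.14 for Scnn1a and 0.11 for Klk1. The mean therefore does not stand for each marker. None of the 4 markers tested passed between the strains, 2 had an unadjusted p below 0.05, and their part in the Kcnj16 and Kcns3 values was not tested. Kcnj10 itself differed by −0.028 ± 0.11 (adjusted p = 0.916; 95% interval −0.26 to 0.21), a value whose sign depended on the scaling.

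Kcnj15 (Kir4.2), known from epithelia, had a difference of 0.25 ± 0.14 (SE; adjusted p = 0.344), and of 0.12 without WKY 1-5. Kcnj8 (Kir6.1), the pore of the vascular ATP-sensitive channel, had one of 0.28 ± 0.15 (adjusted p = 0.329), and of 0.17 without SHR 2-3. Its values were −2.16, −1.98, −2.55, −2.57 and −2.84 in SHR and −2.77, −2.79, −2.40, −2.75 and −2.80 in WKY, with SHR 3-4 below all WKY arrays. Of 4 endothelial markers 0 passed in limma and 1 had an unadjusted p below 0.05. Their mean ran over −1.16 to −0.66 in SHR and −1.05 to −0.76 in WKY, and their part in this value was not tested. The other 11 inward rectifiers, Kcnj3 included, had differences of −0.47 to 0.15.

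The calcium-activated channels include the best known potassium channels of the salivary acinus. None of the 11 genes of their family passed, against 4.36% of all genes (median −0.055). In 1 of them, or 9.09%, the unadjusted p was below 0.05, against 20.3% of all genes. Of the 11 differences 8, or 72.7%, were negative, against 53.4% of all genes. Kcnma1, the pore of the large-conductance BK channel, had log2 values of 2.56, 2.67, 2.60, 3.93 and 3.14 in SHR and 2.82, 2.50, 3.02, 2.39 and 2.45 in WKY. SHR 3-3 was well above the rest while the other arrays overlapped. The difference was 0.34 ± 0.24 (SE; adjusted p = 0.453; 95% interval −0.18 to 0.87), and 0.10 ± 0.16 without SHR 3-3 (adjusted p = 0.758). The other probes of the gene differed by 0.26 ± 0.10 and 0.40 ± 0.13 (adjusted p over all probes = 0.161 and 0.123).

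Kcnn4, the intermediate-conductance channel that acts beside BK in acinar cells, had values of 2.32, 2.33, 2.73, 2.56 and 2.53 in SHR and 2.43, 2.32, 2.57, 2.12 and 2.04 in WKY. These ranges overlapped, with a difference of 0.20 ± 0.12 (SE; adjusted p = 0.382; 95% interval −0.064 to 0.46). Kcnmb1, the BK subunit typical of smooth muscle, differed by −0.21 ± 0.12 (adjusted p = 0.351), and by −0.11 without SHR 3-1. Kcnn2 (SK2), a small-conductance channel, differed by −0.29 ± 0.13 (adjusted p = 0.236), the lowest of the family. The other 7 genes had differences of −0.11 to 0.28. Of the 5 acinar markers 1 was lower, the secreted protein gene Smgc (−4.10 ± 0.35 SE, adjusted p = 2.3e-05), and the other 4 did not pass, with differences above 0 (Aqp5 0.38, Bhlha15 0.33, Slc12a2 0.23 and Ano1 0.23). The list mean, Smgc included, ran over 3.31 to 3.67 in SHR and 3.76 to 4.25 in WKY. It therefore does not stand for the other 4 markers. The part of these markers in the values of these channels was not tested.

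Genes that work with these channels under other names were listed too. Of 7 channel partners tested, such as the sulfonylurea receptors Abcc8 and Abcc9 and the BK subunit Lrrc26, 0 passed in limma and 1 had an unadjusted p below 0.05 (median 0.091). Of 21 genes of pumps and cotransporters that carry potassium, subunits and regulators included, 0 passed (median −0.0031). Of the 21, 6 had an unadjusted p below 0.05, or 28.6%, against 20.3% of all genes. The list includes the sodium pump subunits and the chloride cotransporter Slc12a2. The strains did not overlap in 1 of the 21, or 4.76%, against 7.25% of all genes. That gene was Fxyd6, a regulator of the sodium pump singled out after its values were seen. Its difference was −0.97 ± 0.35 (SE, limma adjusted p = 0.145).

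Several of these genes are neighbours in the GRCr8 annotation, with no other protein-coding gene starting between them. Kcna3, with a difference of −0.42, is followed by Kcna2 (0.11) and Kcna10 (−0.057), voltage-gated genes of the same subfamily that did not pass. Kcnip1 (−0.35) lies next to Kcnmb1 (−0.21), and Kcnj16 (−0.75) next to Kcnj2 (−0.15). Kcnj6 (0.15) lies next to Kcnj15 (0.25). Apart from Kcna3, none of these genes passed the threshold.

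Of all 641 genes called, 65.4% were lower in SHR, and this share was 55.6% with normexp background correction and quantile normalization together, 54.5% with quantile normalization alone, 53.5% with scaling to the median and 50.5% in the authors' values. Kcnk2 was lower under all 20 alternatives and past the threshold in 18, the exceptions being both fits that rest on the slide. Each of these fits used probe A_64_P053471 of Kcnk2, alone or averaged with its other probes (−0.67). They therefore do not speak to those other probes by themselves. The plot by processing shows the differences of the 3 genes called under at least 1 scaling.

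**Figure D4:**
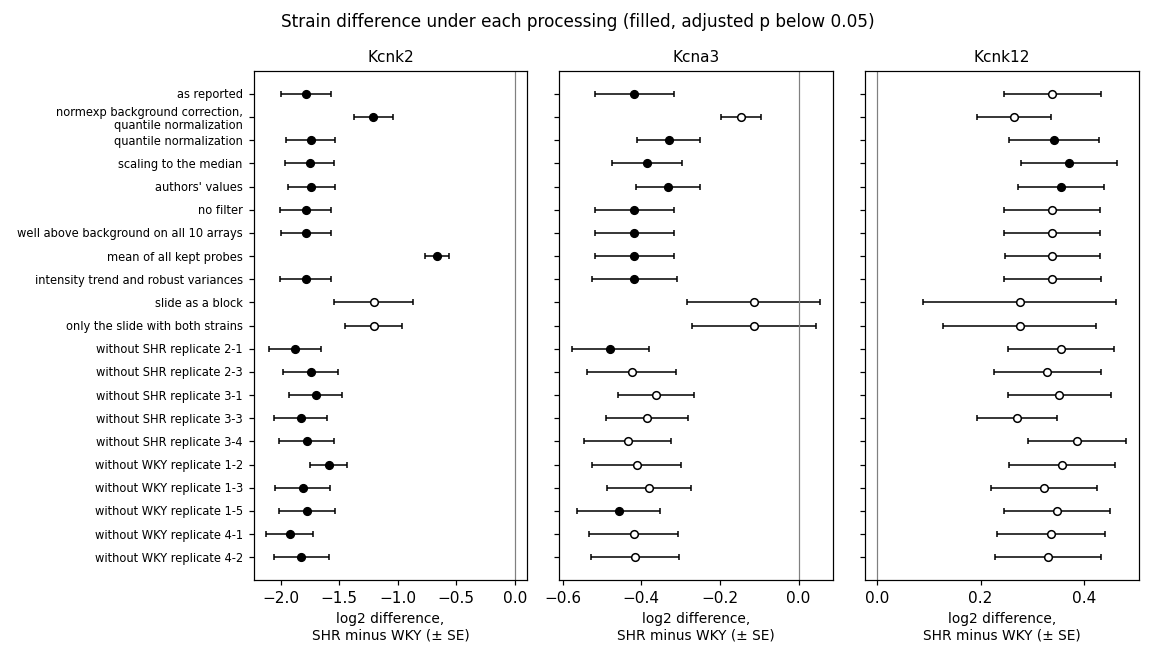
Log2 difference (SHR minus WKY, x axis, ± SE) of Kcnk2, Kcna3 and Kcnk12 as reported and under each of 20 alternatives (y axis); filled points have an adjusted p below 0.05. Kcnk2 is filled in all but the slide fits, Kcna3 is open in most fits that leave out an array, and Kcnk12 is filled in 3.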

How the data were processed

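Total RNA of 10 samples was labelled with Cy3 and hybridised to one-colour Agilent arrays, per the labels' protocols. Spots were quantified by the authors in Feature Extraction 11.0.1.1, per the file headers, and the processed signal is a background-subtracted, detrended intensity that was not normalised between arrays. The same files hold outlier and background marks with other values, 0 or 1, per the file headers. The authors' deposited table holds log2 values with equal quantiles in all columns, and the sources used here do not give how it was made.

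Here each log2 processed intensity was reduced by the log2 of its array's 75th percentile. Outlier spots were set to missing and spots of a probe averaged. Symbols came from RefSeq accessions (GRCr8), which named 18005 of 30367 probes; the scanner files hold no gene name column. Genes whose probe was well above background on at least 5 of 10 arrays were tested with limma 3.58.1 (lmFit, eBayes, R 4.3.3), two-sided, over all 14711 genes; the probes of single genes were taken from a fit over all 29266 kept probes. The fit was tested on simulated data. Figures used matplotlib 3.10.9.

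The genes named were those past the threshold or with strains apart, the largest positive and negative difference of each family, 8 channels known from secretory epithelia and genes whose probes disagree, 19 in all; 1 further gene that the rule names is counted in all totals but not reported here. Alternatives were other normalisations, the authors' values, other filters, all probes, another variance model, the slide and each array left out. For normexp (offset 50) the median signal was used. The members and lists were chosen with earlier results of these data known. The labels give no replicate number shared between the strains.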

Additional observations from a re-analysis of the deposited data

Results flagged for a closer look

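Of the values of the 19 named genes, 4 stood apart from the other arrays of their strain. Dixon's ratio, the gap to the nearest array over the range of the strain, was above 0.71 for them. In all, 38 groups were examined, and chance alone would mark about 1 in 20 of groups not chosen by their values. Some of these genes, Kcnj16 and Kcns3 among them, were named for the size of their difference. That rate therefore does not hold for them. Kcnj16 was at −1.97 in SHR 3-3, with the other SHR arrays between 0.74 and 0.97. Kcns3 was at −5.08 in SHR 3-3, where the others lay between −3.39 and −2.88. Kcnip1 was at −0.27 in SHR 2-1, above the other SHR arrays at −0.997 to −0.92. Kcnj8 was at −2.40 in WKY 1-5, above the other WKY arrays at −2.80 to −2.75. The 2 values of SHR 3-3 belong to an array that stood apart in many genes.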

How the results depend on the processing

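The number of potassium channel genes lower in SHR, 2 as reported, was 1 with normexp background correction and quantile normalization together and 0 with the slide as a block or on the slide with both strains alone. It ranged over 1 to 4 when 1 array was left out: 1 without any of SHR 2-3, 3-1, 3-3 and 3-4 or WKY 1-2, 1-3, 4-1 and 4-2, and 4 without SHR 2-1, where Kcnip1 and Kcnj3 joined (Kcnj3, singled out after its values were seen, at −0.62, adjusted p = 0.0270). The number higher, 0 as reported, was 1 with quantile normalization, with scaling to the median and in the authors' values. The cause was not tested. Over all genes, 44 were called with the slide as a block and 52 on the slide alone, against 641; without 1 array the number was between 343 (WKY 1-3) and 724 (SHR 3-3).

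Over the 19 named genes and 20 alternatives, 346 of 378 values kept their direction and side of the threshold, 17 changed side and 15 changed direction. Kcnj10 changed sign with normexp and quantile normalization together (0.029), quantile normalization alone (8.7e-04), scaling to the median (0.0038), the authors' values (0.0081), the slide as a block (0.24) and without SHR 3-1 (0.020), WKY 1-2 (0.015) or WKY 1-3 (0.0092). Without any 1 of the other 7 arrays it stayed negative, down to −0.091. With the slide as a block, and equally on the slide alone, Kcne5 was at 0.21, Kcnip1 at 0.29 and Kcnma1 at −0.061. Kcnk2 ranged over −1.93 to −0.67. Precision is limited by 5 arrays per strain and by 1 slide that holds both.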
